A study of Mus musculus with 2 samples.

Results

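The cells described here are GABAergic cells of the embryonic mouse forebrain, and they carried transcripts of markers of the lateral ganglionic eminence (LGE). They had few or no transcripts of Lhx6, Nxph1 and Adarb2, genes of the medial and Adarb2-positive interneuron lineages. They were chosen by unique molecular identifiers (UMIs), each of which marks 1 captured RNA molecule. A kept cell barcode entered the LGE gate when Gad1, Gad2 and Dlx6os1 together had at least 3 UMIs, Lhx6 and Nxph1 at most 1, Adarb2 at most 2, Neurod2 and Neurod6 at most 2, and the 5 markers Meis2, Foxp1, Isl1, Six3 and Ebf1 at least 3. This rule found 159 cells of 12936 kept barcodes. Of these cells, 150 came from replicate 1 (2.75% of its kept barcodes, 95% Wilson interval 2.35 to 3.22) and 9 came from replicate 3 (0.120%, 0.0633 to 0.228), a mean share of 1.44% ± 1.86 (SD, n = 2). The intervals cover counting error only. The limits did not require absence, as 31 of the 150 cells of replicate 1 had an Adarb2 UMI, 3 an Lhx6 UMI and 7 an Nxph1 UMI.

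Single cell RNA sequencing was performed on the dorsal telencephalon of wild-type (WT) embryos at E14.5, with 1 droplet-based 3' library for each of 2 samples. The embryos were controls of the EomesMllt3 (Eomes-Cre) mouse line, and the labels give the genotype of both samples as WT and the tissue as brain hemispheres. Replicate 1 held 64182006 UMIs in 6163 barcodes and replicate 3 held 93295807 UMIs in 8870 barcodes, and the study used such data to ask which signals pass from SST+ interneurons to cortical progenitors. As there was 1 group, comparisons were made between kinds of cells within these libraries, against an MGE gate (at least 2 UMIs of Lhx6 and Nxph1, 363 and 212 cells in replicates 1 and 3), an Adarb2 gate (at least 3 UMIs of Adarb2, 178 and 27 cells) and a projection neuron gate (at least 3 UMIs of Neurod2 and Neurod6 and 0 of the GABAergic genes, 3051 and 4199 cells).

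The LGE is a ventral swelling of the embryonic forebrain whose progenitors divide in the ventricular and subventricular zones and express Gsx2 and Dlx genes. Its ventral domain produces the projection neurons of the striatum, where Isl1 and Ebf1 belong to the direct pathway (later marked by Drd1) and Six3 and Sp9 to the indirect pathway (later marked by Drd2, Adora2a and Penk). Its dorsal domain, which expresses Sp8, Etv1, Pax6 and Meis2, produces interneurons of the olfactory bulb and cells of the amygdala.

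The 2 libraries did not hold the same cells in this gate. In replicate 1, 117 of 150 cells had a UMI of Dlx1, Dlx2, Dlx5 or Dlx6, the homeobox genes of ventral forebrain GABAergic cells, whereas 4 of 9 cells did so in replicate 3. Bcl11b, a transcription factor of striatal and deep cortical neurons, was detected in 129 of 150 cells and in 3 of 9 cells. The striatal gene Zfp503 was at 53.0 CPM (UMIs of the gene scaled to the total UMIs of the summed cells) in the summed cells of replicate 1 and had 0 of 79740 UMIs in replicate 3, where 3 counts would be 37.6 CPM. In its place, 3 of 9 cells of replicate 3 had a Slit2 UMI and no Dlx UMI. Slit2, a secreted repellent of growing axons, was at 65.5 and 1793 CPM, and the glial glutamate transporter gene Slc1a3 at 41.6 and 1053 CPM, in replicates 1 and 3. The sums of replicate 3 were carried by few cells, since 4 of 9 had a Slit2 UMI and 1 cell held 65 of the 84 Slc1a3 UMIs. UMIs of Dlx genes and of Bcl11b were thus found in most cells of replicate 1, and in only some of the cells of replicate 3. These genes do not set LGE cells apart from MGE gate cells. In the test against the MGE gate described below, Dlx1 (log2 fold change 0.10) and Bcl11b (0.22) were not called. How many of the cells were of the LGE lineage was not settled. The part that dissection or embryo played in the unequal numbers cannot be told apart from 1 library each. Of the barcodes, 23 occurred in both libraries, and none of them (0) was an LGE gate cell. Predicted doublets made up 4 of 150 cells and 0 of 9 cells.

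**Figure D1:**
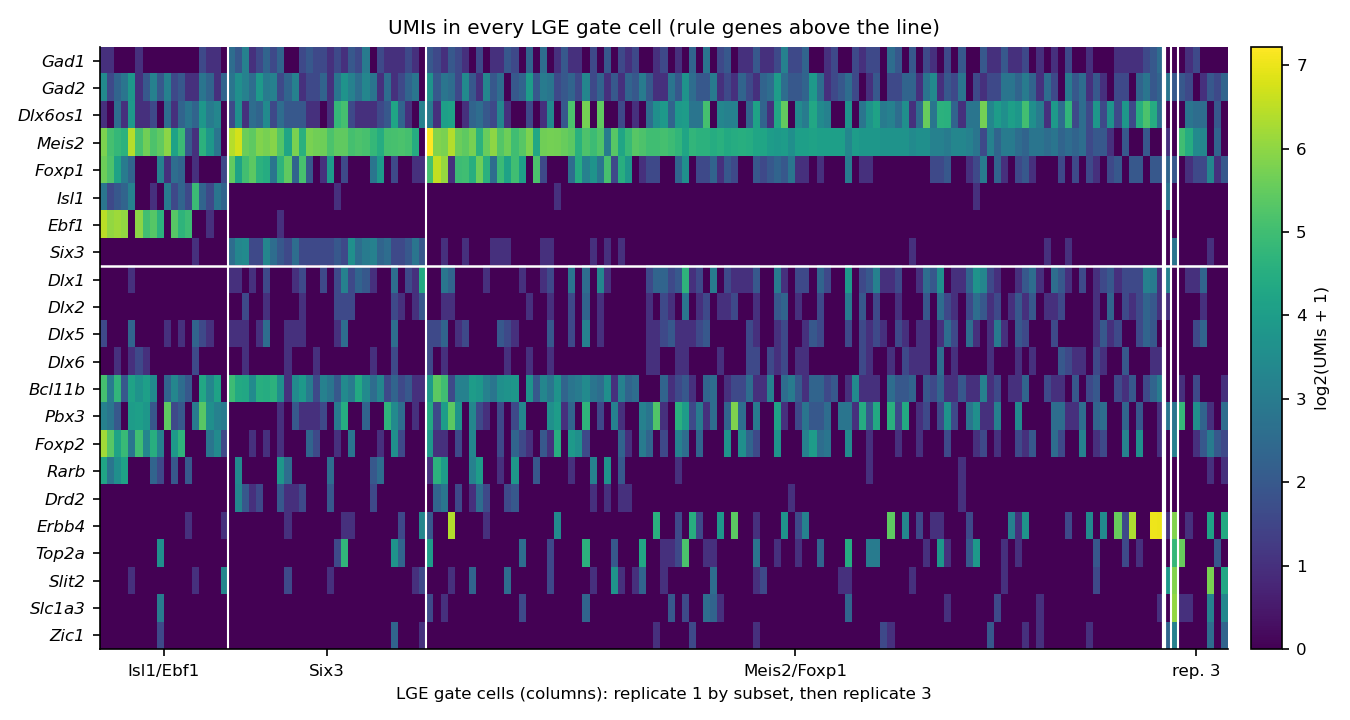
UMIs, as log2(UMIs + 1), of 22 genes (rows) in each of the 159 LGE gate cells (columns), with the cells of replicate 1 ordered by subset and those of replicate 3 at the right edge; the rule genes lie above the horizontal line. Meis2 is seen in nearly every column of replicate 1, Ebf1 and Six3 in separate columns, and Slit2 and Slc1a3 are brightest among the 9 columns of replicate 3.

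Meis2, a homeobox gene of the LGE that cortical neurons also express, carried most of the marker sum. It was detected in 143 of 150 cells of replicate 1 and was at 4095 and 953 CPM in replicates 1 and 3. Foxp1, a forkhead gene of striatal and cortical neurons, was at 1239 and 314 CPM. Isl1 was at 90.4 and 75.2 CPM and Six3 at 142 and 87.8 CPM. Ebf1 was at 563 CPM in replicate 1 and had 0 UMIs in replicate 3. In replicate 1, 63 of 150 cells reached the marker sum only through Meis2, 61 had a UMI of Isl1, Six3 or Ebf1, and 2 had both Isl1 and Six3. As the rule used these 5 genes, their levels are a description and were not tested. The marker sum alone did not mark the LGE, since 95.8% and 97.2% of projection neuron gate cells and 20.7% and 15.1% of MGE gate cells also reached it. In replicate 1, Isl1 was at 2 or more UMIs in 14 of 150 LGE gate cells, 14 of 178 Adarb2 gate cells, 0 of 363 MGE gate cells and 1 of 3051 projection neuron gate cells. Six3 was so in 28, 8, 2 and 3 of the same cells, so that both genes also marked cells of the Adarb2 gate. In replicate 1, 9 cells lay just inside the limit, with a marker sum of 3, and 6 GABAergic cells lay just outside it, with a sum of 2. The 9 cells held 44931 UMIs, among them 28 of Dlx1, 8 of Sp9 and 396 of Erbb4, and the 6 cells held 22990 UMIs, among them 4 of Dlx1, 9 of Sp9 and 71 of Erbb4.

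The members of replicate 1 fell into 3 subsets by the rule genes themselves. An Isl1/Ebf1 subset (at least 2 UMIs of Isl1 and Ebf1) held 18 cells, a Six3 subset (at least 2 UMIs of Six3 and fewer than 2 of the former) held 28 cells, and a Meis2/Foxp1 subset held the remaining 104 cells. In replicate 3 these subsets had 1, 1 and 7 cells, fewer than the 10 set for a test. The levels of replicate 1 are therefore given with exact 95% Poisson intervals and without a test. These intervals leave out the spread between cells, so whether they overlap is a description only.

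Summed over its cells, the Isl1/Ebf1 subset had high levels of some genes of striatal projection neurons. For Foxp2 and Rarb these came mainly from its cells with Ebf1, as given below. Foxp2, a forkhead gene of these neurons, was at 2389 CPM (2122 to 2679.6), against 146 CPM (98.3 to 208) in the Six3 subset and 411 CPM (363 to 465) in the Meis2/Foxp1 subset. The intervals of these levels did not overlap. Rarb, a retinoic acid receptor gene of the developing striatum, was at 525 CPM (405 to 671), 199 CPM (143 to 270.3) and 169 CPM (138 to 204) in the same order. The netrin receptor gene Dcc was at 4548 CPM (4177 to 4943) in the Isl1/Ebf1 subset and at 1453 CPM (1293 to 1627) and 789.8 CPM (722 to 862) in the other subsets. Bcl11b was at 1559.7, 1370.2 and 714 CPM, and Zfp503 at 148, 87.5 and 23.6 CPM. For both genes the intervals of the first 2 subsets overlapped. Here Dlx2, Sp8, Gsx2 and Sp9 had 0 UMIs among 121821, where 3 counts would be 24.6 CPM. Of the direct pathway markers, Drd1 and Pdyn also had 0 UMIs and Tac1, which encodes substance P, had 2.

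The Isl1/Ebf1 subset was itself mixed. In 11 cells Ebf1 had at least 2 UMIs, and the other 7 cells entered through Isl1. Rarb had 64 UMIs in 8 of these 11 cells and 0 UMIs in the 7 cells. Foxp2 was at 3676 and 488 CPM, and Zfp521, a zinc finger gene that Ebf1-expressing neurons share, at 757 and 81.3 CPM. Pbx3, a homeobox cofactor gene, went the other way, at 743 and 2643 CPM. A further 2 cells were found by the size of 1 gene's count, after the values were seen. One cell had 25 UMIs of Rgs5, 4 of Pdgfrb and 33 of Col4a1, genes of pericytes and of the vessel wall, with 0 UMIs of Stmn2, and it contributed 24 of the Ebf1 UMIs. The other had 841 UMIs of Gnrh1, which encodes gonadotropin-releasing hormone, together with 29 of Isl1, 13 of Six6 and 70 of Trpm3. No other kept barcode (0 of the rest) held 10 or more Gnrh1 UMIs in either library, and 35 and 36 kept barcodes had any. Of the 121821 UMIs of the subset, the cell with Rgs5 held 15704 and the cell with Gnrh1 held 17841. Without the cell with Rgs5, the 10 remaining Ebf1 cells had Ebf1 at 9064 CPM and Rarb at 1089 CPM.

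The Six3 subset carried the genes of indirect pathway neurons. Drd2, the dopamine D2 receptor gene, was at 131 CPM (86.5 to 191) here, at 48.9 CPM (33.2 to 69.4) in the Meis2/Foxp1 subset and at 0 UMIs in the Isl1/Ebf1 subset. Adora2a, the adenosine A2a receptor gene, was at 126 CPM (82.5 to 185), 26.8 CPM (15.6 to 42.9) and 0 UMIs. Penk, which encodes enkephalin, was at 48.6 CPM (23.3 to 89.4) and 28.4 CPM (16.8 to 44.8), with overlapping intervals, and at 0 UMIs. Drd2 and Adora2a were thus at their highest level in the Six3 subset and were not detected in the Isl1/Ebf1 subset. Drd2 was not confined to cells with Six3, since 15 of the 24 cells with Drd2 had a Six3 UMI. Ptprm, a receptor phosphatase gene, was at 1181 CPM (1037 to 1339), and the axon repellent gene Slit3 at 1020.4 CPM (887 to 1168). In the Meis2/Foxp1 subset these were at 377 CPM (331 to 428) and 422 CPM (373 to 476), and in the Isl1/Ebf1 subset at 115 CPM (62.8 to 193) and 8.21 CPM (0.208 to 45.7). Sp9, the indirect pathway zinc finger gene, was at 316 CPM (244 to 403) and 239.6 CPM (203 to 281) in the Six3 and Meis2/Foxp1 subsets, with overlapping intervals. Beyond these lists, the genes with the largest differences from the Meis2/Foxp1 subset included the muscarinic receptor gene Chrm2, at 189 and 3.15 CPM, and Sox6, at 4.86 CPM in the Six3 subset and 377 CPM in the Meis2/Foxp1 subset. Chrm2 was found in 4 of the 28 cells of the Six3 subset.

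Drd2 was seen in 24 of the 150 cells of replicate 1, and 15 cells had both Six3 and Drd2. When each cell was thinned to 1500 UMIs, 12 of 150 cells had a Drd2 UMI (8%, 4.64 to 13.5), against 0 of 363 MGE gate cells (which allows a share of cells with a UMI of up to 0.826%), 0 of 178 Adarb2 gate cells (up to 1.69%) and 2 of 3051 projection neuron gate cells (0.0656%). Without thinning the other gates had 0, 2 and 8 such cells. Adora2a was in 11 of 150 LGE gate cells after thinning, and in 3 of 33 endothelial cells, which use this receptor too. Median depth before thinning was 5406.5 UMIs in the LGE gate, 4884 in the MGE gate and 11658 in the projection neuron gate. A share of cells with a UMI is not a share of cells that express the gene. In the sum of replicate 1, Drd2 was at 60.3 CPM and the MGE gate had 0 UMIs, so that the level was at least 42.7-fold higher (against 3 counts in the MGE gate sum). Drd2, Adora2a and Penk had 0 UMIs in the 9 cells of replicate 3 and did not pass the filter of the test.

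The Meis2/Foxp1 subset was the largest and held genes of progenitors and of the dorsal LGE, and some genes that MGE gate or Adarb2 gate cells also carried. Erbb4, the neuregulin receptor gene, was at 1118 CPM (1037 to 1203), against 16.4 CPM (1.99 to 59.3) and 68.0 CPM (37.2 to 114) in the Isl1/Ebf1 and Six3 subsets. Its UMIs were in few cells, as 31 of 104 cells had any, and 396 of the 709 UMIs were in the 9 cells with a marker sum of 3, just inside the limit. Without these 9 cells Erbb4 was at 531 CPM (474 to 593). Erbb4 is not particular to the dorsal LGE. In replicate 1 the level of the whole LGE gate was 0.0526 of that in the MGE gate and 0.128 of that in the Adarb2 gate. Sox6, a marker of MGE interneurons, was at 377 CPM in the Meis2/Foxp1 subset, in 45 of its 104 cells. Whether MGE interneurons entered this subset was not tested. Etv1, an ETS factor gene of olfactory bulb interneurons, was at 173 CPM (143 to 209), 24.6 CPM (5.08 to 72.0) and 19.4 CPM (5.30 to 49.8). Sp8, a zinc finger gene of the same interneurons, was at 80.4 CPM (59.9 to 106) in the Meis2/Foxp1 subset and 38.9 CPM (16.8 to 76.6) in the Six3 subset. Pax6, a homeobox gene of the dorsal LGE, was at 101 CPM (77.7 to 129) and 38.9 CPM (16.8 to 76.6). The intervals of Sp8 overlapped between these 2 subsets, and those of Pax6 did not. The whole LGE gate was tested against the Adarb2 gate, as described below. There the log2 fold change was -0.709 for Sp8, -0.101 for Etv1 and -0.282 for Pax6. Of the other dorsal LGE genes, Synpr was at -2.58, Cdh8 at -1.24, Foxp4 at -1.10 and Zic1 at 0.132. None of these genes was called. In replicate 1 alone, Pax6 had 75 UMIs among 961981 in the LGE gate and 72 among 1110912 in the Adarb2 gate. Gsx2, which acts in LGE progenitors, had 12 UMIs in the Meis2/Foxp1 subset and 0 UMIs in both other subsets, and at the depth of the Isl1/Ebf1 subset a difference was not detectable.

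**Figure D2:**
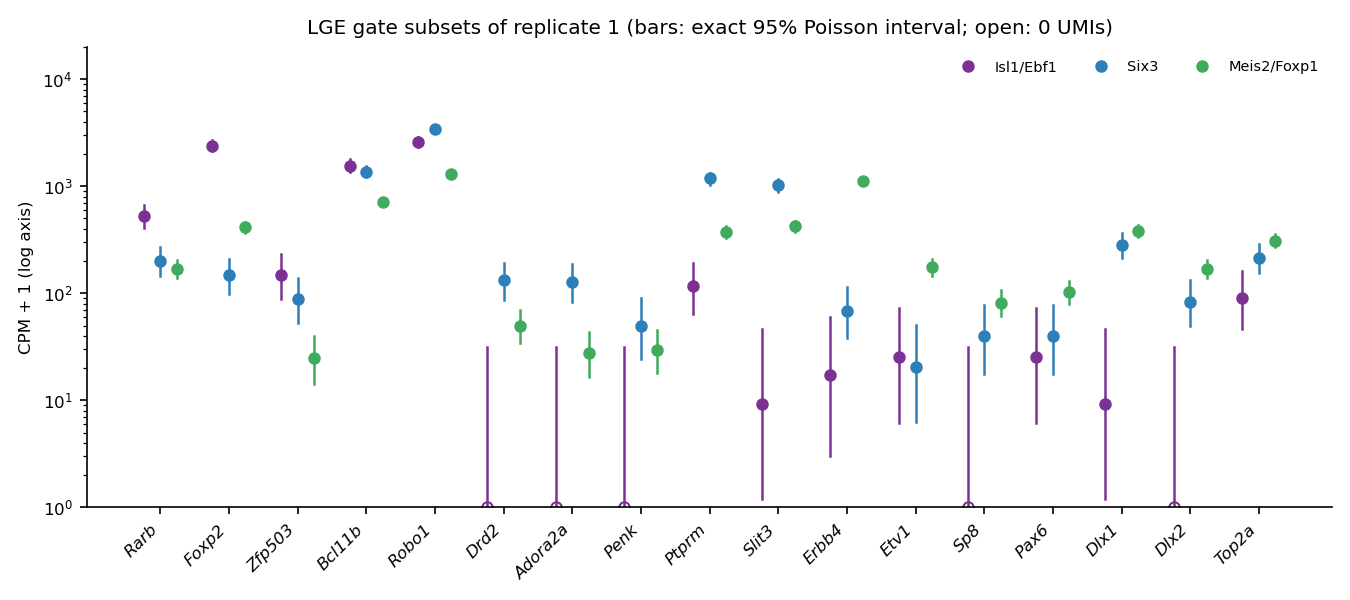
Level of 17 genes (CPM + 1, log axis) in the 3 subsets of LGE gate cells of replicate 1, with exact 95% Poisson intervals as bars and open points for 0 UMIs. Foxp2 and Rarb are highest in the Isl1/Ebf1 subset, Drd2, Adora2a, Ptprm and Slit3 in the Six3 subset, and Erbb4 and Etv1 in the Meis2/Foxp1 subset.

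Many members carried transcripts of dividing cells. Cells with 2 or more UMIs summed over 10 cycling genes, such as the topoisomerase gene Top2a and the proliferation marker gene Mki67, were counted after thinning each cell to 1500 UMIs. They made up 46 of 150 LGE gate cells in replicate 1 (30.7%, 23.8 to 38.5) and 4 of 9 cells in replicate 3 (44.4%, 18.9 to 73.3), a mean of 37.6% ± 9.74 (SD, n = 2). The share was 1.93% and 5.66% in the MGE gate, 12.9% and 3.70% in the Adarb2 gate and 5.70% and 8.76% in the projection neuron gate, in replicates 1 and 3. The LGE gate was thus above each of these gates in both libraries. The other gates required UMIs of Lhx6 and Nxph1, of Adarb2, or of Neurod2 and Neurod6, all of which the LGE gate limited. How far this choice of gates set the difference was not tested. Of the 4 cells in replicate 3, 1 had a Dlx UMI (of 4 such cells), and in replicate 1 the share was 41 of 117 cells with a Dlx UMI. Shares were not tested over 2 libraries. Without thinning, the LGE gate share was 44.7% in replicate 1 and 66.7% in replicate 3. Within replicate 1, 40 of 104 Meis2/Foxp1 cells (38.5%, 29.7 to 48.1), 5 of 28 Six3 cells (17.9%, 7.88 to 35.6) and 1 of 18 Isl1/Ebf1 cells (5.56%, 0.988 to 25.8) passed this limit, and the 1 cell of the last subset was the one with Rgs5. The share in endothelial cells, 9 of 33 and 27 of 71, was of a like size, so that it was not particular to the LGE gate.

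**Figure D3:**
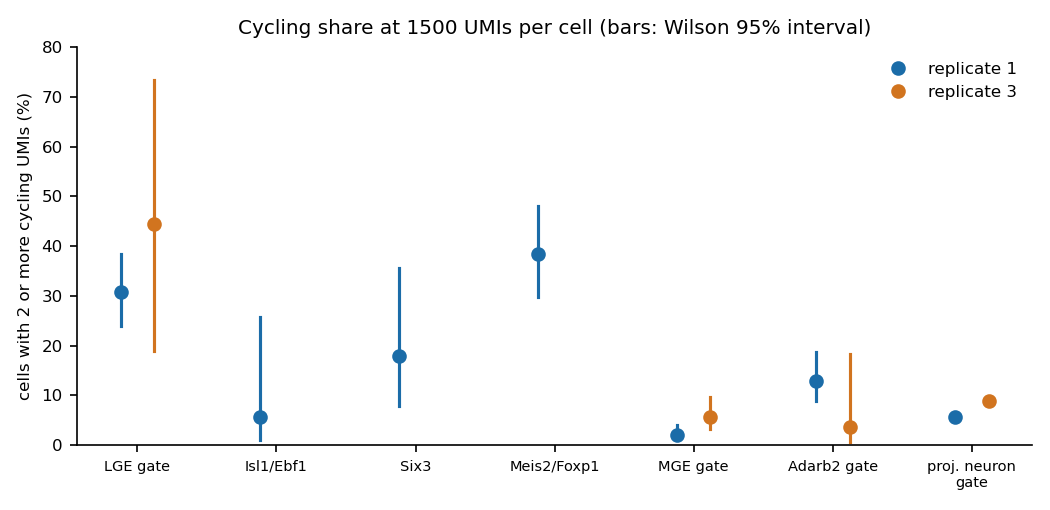
Share of cells with 2 or more UMIs of cycling genes (%), at 1500 UMIs per cell, in the LGE gate, its 3 subsets (replicate 1 only) and the other gates, by library, with Wilson 95% intervals. The LGE gate lies at 30.7% and 44.4%, and the MGE, Adarb2 and projection neuron gates lie at or below 12.9%.

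The 46 cycling and the 104 other cells of replicate 1 differed in genes of progenitors and of striatal neurons, which is given as a description chosen after the data were seen. Dlx2 was at 223 and 72.5 CPM. Insm1, a zinc finger gene of newly committed neuronal precursors, was at 192 and 44.5 CPM. Of the 58 Drd2 UMIs, 1 was in a cycling cell and 57 were in the others, and Adora2a and Penk had 0 UMIs in cycling cells. Zfp503 was at 5.64 and 80.7 CPM, Rarb at 36.6 and 328 CPM, and Bcl11b at 344 and 1322 CPM. Receptor and striatal genes were therefore found mainly outside the cycling cells. Dnmt1, the maintenance DNA methyltransferase gene, was at 138 and 51.0 CPM, and its partner Uhrf1 at 121 and 21.4 CPM. Slit3 and Ptprm were at 14.1 and 28.2 CPM in cycling cells and at 781 and 800.3 CPM in the others. Meis1 was at 285 and 566 CPM and Sp9 at 242 and 216 CPM, which differed less.

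Against the MGE gate, whose cells become Sst and parvalbumin interneurons, LGE gate sums were compared over both libraries with edgeR's quasi-likelihood test and Benjamini-Hochberg adjustment over 10681 genes, without the 13 rule genes. Of these genes, 150 were higher in the LGE gate (1.4%) and 279 were lower (2.61%), together 4.02%. The higher share of the calls was 35.0%, and it was 46.1% with DESeq2 and 54.3% with library sizes in place of TMM factors, a scaling that moved the median of all genes by 0.17 on the log2 scale. Of the 429 calls, 421 had the same direction in both libraries. When the LGE gate sum of replicate 3 was left out, 468 genes were called, 363 of them shared with the 429, and without the sum of replicate 1 there were 577, of which 159 were shared. In these fits, chosen after seeing the data, the lone LGE gate sum is assumed to vary like those of the other gates. Hemoglobin genes moved with this comparison. The 14 markers of non-neural cells summed to 479 and 790.1 CPM in the LGE gate and to 7637 and 10506 CPM in the MGE gate, and 3 of the 7 tested, all hemoglobin genes, were lower in the LGE gate. Their part in the other differences was not tested.

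The 10 genes named as furthest above the MGE gate were of several kinds, among them transcription factor, channel, transporter and mitotic kinesin genes. Zfhx3, a homeobox gene of striatal neurons, was at 969.9 and 213 CPM in the LGE gate and at 21.7 and 7.32 CPM in the MGE gate, with no overlap (log2 fold change 5.21 ± 0.69 (SE), adjusted p = 0.00621). Its paralog Zfhx4 was at 526 and 113 CPM against 19.8 and 40.7 CPM (3.52 ± 0.75, adjusted p = 0.0367). Insm1 was at 98.8 and 213 CPM against 6.60 and 2.44 CPM (4.34 ± 0.49, adjusted p = 0.00359). Six3os1 was at 55.1 and 263 CPM against 1.41 and 0 CPM, and its locus (mm10, chr17:85601932-85618396) overlaps that of the rule gene Six3 (chr17:85613608-85626191), so that it is not independent of the rule. Slc18a2, which encodes the vesicular monoamine transporter, was at 48.9 and 50.2 CPM against 4.24 and 2.44 CPM (3.55 ± 0.61, adjusted p = 0.0167). Kcnh1, a potassium channel gene, was at 24.9 and 25.1 CPM in the LGE gate, from 2 UMIs in replicate 3, and had 0 UMIs in the MGE gate. In replicate 1 this was at least 17.6-fold higher, against 3 counts in the MGE gate sum. The mitotic kinesin genes Kif2c (3.75 ± 0.65, adjusted p = 0.0174) and Kif18a (3.54 ± 0.63, adjusted p = 0.0191) were also higher, as was the unnamed transcript Gm44593 (3.55 ± 0.77, adjusted p = 0.0392).

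Of 10 cycling genes, 6 were higher in the LGE gate than in the MGE gate and 0 were lower, with a median log2 fold change of 2.85, against -0.04 over all genes. The LGE gate limited Lhx6 and Nxph1, which the MGE gate required, and the part of this in the difference was not tested. All 10 were higher with the library as a block, and 3 were called without the LGE gate sum of replicate 3. Top2a was at 261 and 953 CPM against 21.7 and 54.5 CPM (3.54 ± 0.81, adjusted p = 0.0468). Hmgb2, a chromatin gene of dividing cells, was at 1083 and 2420.4 CPM against 136 and 251 CPM (2.87 ± 0.55, adjusted p = 0.0258). The LGE gate libraries lay above both MGE gate libraries for each. In replicate 3 all 76 Top2a UMIs of the LGE gate were in cells without a Dlx UMI, 73 of them in cells that had no Nrxn3 UMI either. With the LGE gate restricted to cells with a Dlx UMI, the log2 fold change of Top2a was 2.65 (adjusted p = 0.0363, range over the alternatives 7.93e-24 to 0.0822), which then rested on replicate 1. Of 10 tested genes of LGE progenitors, 3 were higher, among them the growth arrest gene Gadd45g (119.5 and 176 CPM against 21.7 and 24.4 CPM, 2.32 ± 0.48, adjusted p = 0.0319) and Btg2, an antiproliferative gene of neuron-producing divisions. With the block 5 of these 10 were called. Btg2 is also on the list of intermediate progenitor markers, of which 2 of 5 tested, Btg2 and Eomes, were higher. Eomes, a gene of cortical intermediate progenitors, had a log2 fold change of 3.09 ± 0.61 (adjusted p = 0.0286). Its 30 UMIs of replicate 1 were in 6 of 150 cells, with at most 19 in a cell. In replicate 3 it had 11 UMIs, all in 1 of 9 cells. Without the LGE gate sum of replicate 3, the log2 fold change was 2.24 for Gadd45g (adjusted p = 0.0603) and 2.72 for Top2a (adjusted p = 0.0822), neither of them called.

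Of the 20 genes of striatal projection neurons, 19 were tested against the MGE gate and 1, Zfp503, was higher. The median log2 fold change was 0.92, and 5 of the 19 were called with the block and 4 by DESeq2. Zfp503 was at 53.0 and 0 CPM against 1.41 and 0 CPM, so that its call rested on replicate 1, where it was 37.5-fold higher (exact 95% interval 12.1 to 188, from 3 UMIs in the MGE gate). Rarb was at 220.4 and 25.1 CPM against 15.1 and 8.95 CPM, and Meis1 at 463 and 113 CPM against 62.7 and 22.8 CPM. Neither passed the threshold, though the lower LGE gate library was above the higher MGE gate library in both. For Rarb that lower library held 2 UMIs, under the floor of 3 counts. Bcl11b was at 962 and 50.2 CPM against 461 and 421 CPM, with the libraries of the LGE gate on either side of the MGE gate. The genes of the indirect pathway that passed the filter (Sp9, Ptprm and the kainate receptor gene Grik3) gave 0 calls among 3, with 0 at an unadjusted p under 0.05 and 0 by DESeq2. Sp9 was at 226 and 0 CPM against 166 and 130.2 CPM.

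Markers of MGE interneurons were among the genes lower than in the MGE gate. Of 10 tested MGE markers besides the rule genes, 7 were lower and 0 were higher. As the 2 gates were set apart by Lhx6 and Nxph1, a difference in genes that go with these was partly set by the gates. Sst, which encodes somatostatin, was at 7.28 and 0 CPM in the LGE gate and 343 and 312 CPM in the MGE gate (-5.74 ± 0.58, adjusted p = 0.00251). The transcription factor gene Maf was at 26.0 and 50.2 CPM against 481 and 414 CPM (-4.11 ± 0.32, adjusted p = 0.00113), and Sox6 at 291 and 665 CPM against 2061 and 2098 CPM (-2.49 ± 0.36, adjusted p = 0.00868). Dpp10, a potassium channel partner gene, was at 12.5 and 12.5 CPM against 2333 and 2801 CPM (-7.83 ± 0.51, adjusted p = 4.71e-04). The diacylglycerol kinase gene Dgkg and the neurexophilin gene Nxph2, each with 1 UMI in the LGE gate, were at 217 and 252 CPM and at 252 and 407 CPM in the MGE gate. The secreted factor genes Thbs1 and Ism1 had 0 UMIs in the LGE gate, and in replicate 1 they were at least 21.6-fold and 11.6-fold lower than in the MGE gate, against 3 counts in the LGE gate sum.

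Migration and guidance genes divided in both directions against the MGE gate, with 3 higher and 5 lower of 33 tested. Erbb4, the receptor of the neuregulins that guide cortical interneurons, was at 754 and 1204 CPM against 14319 and 13972 CPM (-4.14 ± 0.48, adjusted p = 0.00400). Nrg3 (-4.10 ± 0.53, adjusted p = 0.00573), the chemokine receptor gene Ackr3 (-3.66 ± 0.37, adjusted p = 0.00251), the netrin receptor gene Unc5c (-3.15 ± 0.57, adjusted p = 0.0216) and the ephrin receptor gene Epha5 (-3.16 ± 0.64, adjusted p = 0.0309) were lower as well. Slit3 was at 498 and 12.5 CPM against 17.9 and 31.7 CPM, so that the libraries disagreed and the higher call (3.64 ± 0.74, adjusted p = 0.0310) rested on replicate 1, where it was 27.8-fold higher (19.97 to 39.8). Nrg1 was at 1335 and 2007 CPM against 539.5 and 581 CPM (1.30 ± 0.28, adjusted p = 0.0392), and the semaphorin receptor gene Plxnc1 at 81.1 and 138 CPM against 39.6 and 29.3 CPM (1.17 ± 0.26, adjusted p = 0.0424, and 1.06 with adjusted p = 0.0636 without the LGE gate sum of replicate 3). The Slit receptor gene Robo1 was at 1917 and 37.6 CPM against 356 and 182 CPM, and the ephrin receptor gene Epha4 at 763 and 75.2 CPM against 199 and 178 CPM. For both, the LGE gate libraries lay on either side of the MGE gate, and neither passed the threshold.

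**Figure D4:**
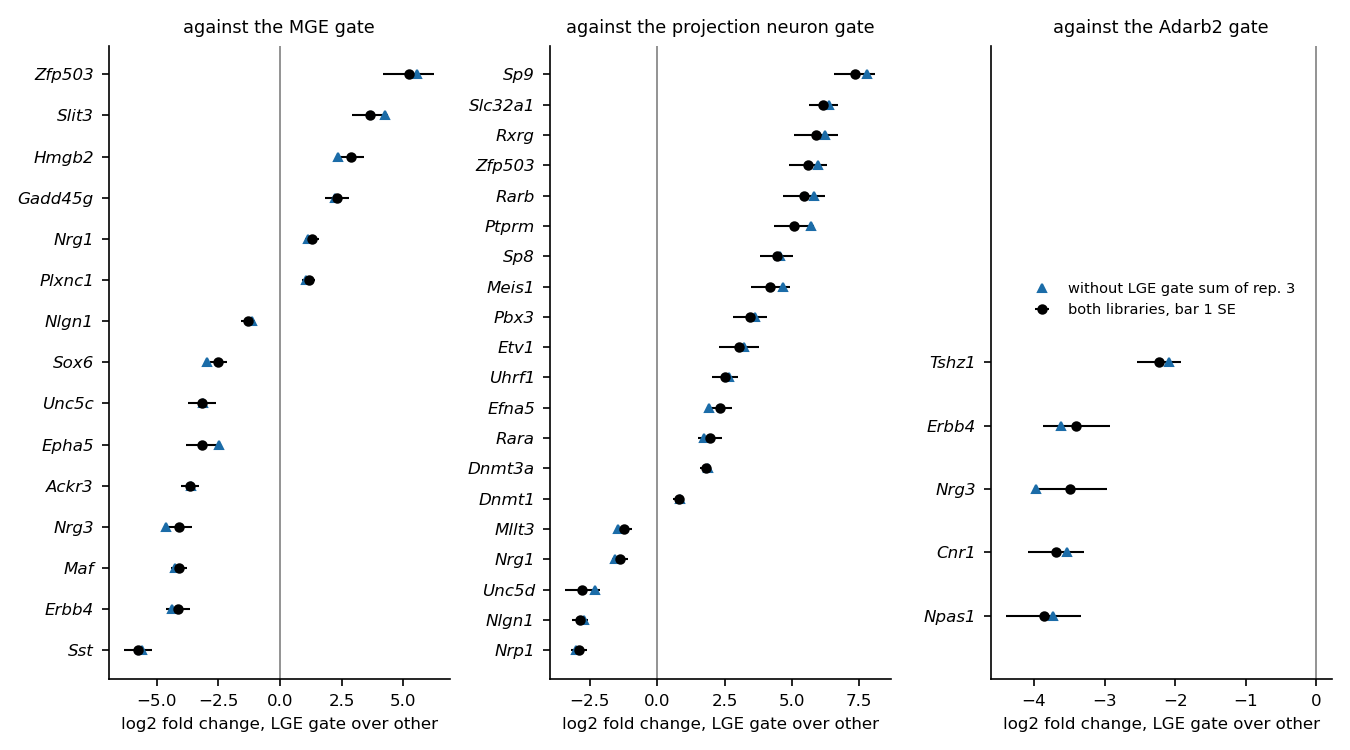
Fitted log2 fold change of named list genes in the LGE gate over the MGE gate, the projection neuron gate and the Adarb2 gate, with 1 SE as bars (edgeR, 2 libraries); triangles give the fit without the LGE gate sum of replicate 3. Erbb4, Nrg3, Maf and Sst lie left of 0 against the MGE gate, and Sp9, Slc32a1, Rarb and Ptprm lie right of 0 against projection neurons.

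Against the projection neuron gate, 388 genes were higher (3.63%) and 322 were lower (3.01%), together 6.65% of 10681 genes. The higher share of the calls was 54.6%, and 66.5% with library sizes only, which moved the median of all genes by 0.17. Of the 710 calls, 648 had the same direction in both libraries. Without the LGE gate sum of replicate 3, 790 genes were called, 600 of them shared, and without that of replicate 1 there were 337, of which 121 were shared. As projection neuron gate cells were chosen for 0 UMIs of Gad1, Gad2 and Dlx6os1, a difference in GABAergic genes was partly set by the gates. Of 15 genes of the GABAergic lineage, 10 were higher and 1 was lower.

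Among them, Dlx1 was at 314 and 176 CPM in the LGE gate and at 1.998 and 0.628 CPM in projection neurons (7.34 ± 0.55, adjusted p = 2.71e-04), and Dlx5 at 161 and 75.2 CPM against 0.830 and 0.647 CPM (7.14 ± 0.36, adjusted p = 8.38e-05). Dlx2 (6.92 ± 0.54, adjusted p = 2.79e-04) was higher as well. Slc32a1, which encodes the vesicular GABA transporter, was at 39.5 and 12.5 CPM against 0.467 and 0.152 CPM (6.17 ± 0.54, adjusted p = 3.86e-04). Nrxn3, a presynaptic adhesion gene, was at 11523 and 3336 CPM against 29.1 and 21.9 CPM (7.997 ± 0.75, adjusted p = 6.02e-04), and Erbb4 at 754 and 1204 CPM against 6.12 and 11.2 CPM (6.50 ± 0.54, adjusted p = 3.26e-04). All these genes were above projection neurons in both libraries. In replicate 3, Dlx2 (2 UMIs) and Slc32a1 were under the level of 3 counts, 37.6 CPM, so that their agreement between libraries is weak. In replicate 3, however, 94 of the 96 Erbb4 UMIs were in the 3 cells with Slit2 and no Dlx UMI. With the LGE gate restricted to cells with a Dlx UMI, the log2 fold change of Erbb4 was 6.05 (adjusted p = 4.34e-04, range over the alternatives 3.53e-85 to 0.00389). The genes named as furthest above projection neurons also held transcripts that encode no known protein or carry no gene name, namely Gm38505 (9.31 ± 0.74, adjusted p = 2.98e-04), B020031H02Rik (7.72 ± 0.66, adjusted p = 3.75e-04), Six3os1 (7.28 ± 0.75, adjusted p = 9.33e-04), Sox2ot (6.59 ± 0.76, adjusted p = 0.00157) and Sox1ot (6.09 ± 0.50, adjusted p = 3.26e-04). Sox2ot (chr3:34560381-34677993) contains the locus of Sox2, a transcription factor gene of progenitors that was itself higher, at 274 and 176 CPM against 18.3 and 28.6 CPM.

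Some striatal genes were above projection neurons. Of 19 genes tested, 7 were higher and 0 were lower, with a median log2 fold change of 0.29 against -0.06 over all genes. Rarb was at 220.4 and 25.1 CPM against 3.53 and 3.29 CPM (5.44 ± 0.77, adjusted p = 0.00441). Meis1 was at 463 and 113 CPM against 18.4 and 14.1 CPM (4.20 ± 0.71, adjusted p = 0.0101), and Pbx3 at 888 and 752 CPM against 74.6 and 54.0 CPM (3.45 ± 0.63, adjusted p = 0.0145). The calls of Zfp503 and the retinoid receptor gene Rxrg rested on replicate 1, since each had 0 UMIs in the LGE gate of replicate 3. In replicate 1 they were 102-fold (59.8 to 181) and 86.8-fold (42.3 to 189) higher. Sp9, also with 0 UMIs in replicate 3, was 198-fold higher (142 to 280) in replicate 1. Ptprm was at 516 and 62.7 CPM against 5.81 and 11.9 CPM (5.08 ± 0.73, adjusted p = 0.00473).

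Of 9 dorsal LGE genes tested, 4 were higher than in projection neurons and 1, Cdh8, was lower, and 3 were called in either direction without the LGE gate sum of replicate 3. The 4 higher genes were Erbb4, Etv1, Sp8 and Tshz1. Against the MGE gate, 1 of these 9 genes (Foxp4) was higher and 1 (Erbb4) was lower. Against the Adarb2 gate, 0 were higher and 2 (Erbb4 and Tshz1) were lower. In the comparison with projection neurons, Sp8 was at 61.3 and 37.6 CPM against 1.19 and 3.18 CPM (4.43 ± 0.62, adjusted p = 0.00407). Etv1 was at 122 and 62.7 CPM against 15.4 and 8.30 CPM (3.03 ± 0.74, adjusted p = 0.0423, and 3.21 with adjusted p = 0.0531 without the LGE gate sum of replicate 3). The retinoic acid genes, which pattern the LGE, had 4 of 9 higher and 0 lower, among them Rarb, Rxrg and Rara. Rara was at 12.5 and 37.6 CPM against 3.06 and 3.44 CPM (1.97 ± 0.44, adjusted p = 0.0323, and 1.75 with adjusted p = 0.0507 without that sum). Against the MGE gate 0 of these 9 genes were called, 4 had an unadjusted p under 0.05 and DESeq2 called 0. Among genes of DNA methylation, which the study addressed through Dnmt1, Dnmt3a, a de novo DNA methyltransferase gene, was at 110.2 and 87.8 CPM against 25.5 and 28.2 CPM (1.79 ± 0.22, adjusted p = 0.00193), and Uhrf1 at 58.2 and 25.1 CPM against 6.12 and 10.4 CPM (2.50 ± 0.48, adjusted p = 0.0171). Dnmt1 was at 83.2 and 75.2 CPM against 43.6 and 40.0 CPM (0.79 ± 0.19, adjusted p = 0.0401). With the library as a block Dnmt1 had an adjusted p of 0.0747, and over the alternatives it ranged from 0.0157 to 0.707. Mllt3, an elongation cofactor gene, was lower, at 511 and 840.2 CPM against 1358 and 1184 CPM (-1.22 ± 0.28, adjusted p = 0.0329).

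Projection neuron genes were low in the LGE gate, with 10 of 12 lower and 0 higher. As the limits on Neurod2 and Neurod6 set these gates apart, this difference too was partly set by the gates. Slc17a7, which encodes a vesicular glutamate transporter, and Ccbe1, 6530403H02Rik, Shisa9 and Chst8 had 0 UMIs in the LGE gate of both libraries. In replicate 1 these 5 genes were at least 6.98-fold (Slc17a7), 16.9-fold (Ccbe1), 14.0-fold (6530403H02Rik), 14.2-fold (Shisa9) and 8.49-fold (Chst8) lower than in projection neurons, against 3 counts in the LGE gate sum. Of 33 guidance genes, 5 were higher and 6 lower. The semaphorin receptor gene Nrp1 was at 65.5 and 100.3 CPM against 475 and 478 CPM (-2.91 ± 0.29, adjusted p = 8.73e-04), and the neuroligin gene Nlgn1 at 283 and 238 CPM against 1911 and 1443 CPM (-2.87 ± 0.31, adjusted p = 0.00113). Nrg1 was lower than in projection neurons, at 1335 and 2007 CPM against 3662 and 3501 CPM (-1.38 ± 0.28, adjusted p = 0.0227), and Efna5, an ephrin ligand gene, was higher, at 248 and 564 CPM against 73.0 and 45.3 CPM (2.33 ± 0.45, adjusted p = 0.0181). Early response genes moved with this comparison, as 3 of 8 (Jun, Fos and Egr1) were higher in the LGE gate. Their list summed to 269 and 727 CPM, against 117 and 136 CPM in projection neurons, and its part was not tested. Of 10 cycling genes, 4 were higher than in projection neurons. The part that the limits on Neurod2 and Neurod6 played in this was not tested. All 10 had an unadjusted p under 0.05, DESeq2 called 6 and the fit with the block 9, and 0 were called without the LGE gate sum of replicate 3.

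**Figure D5:**
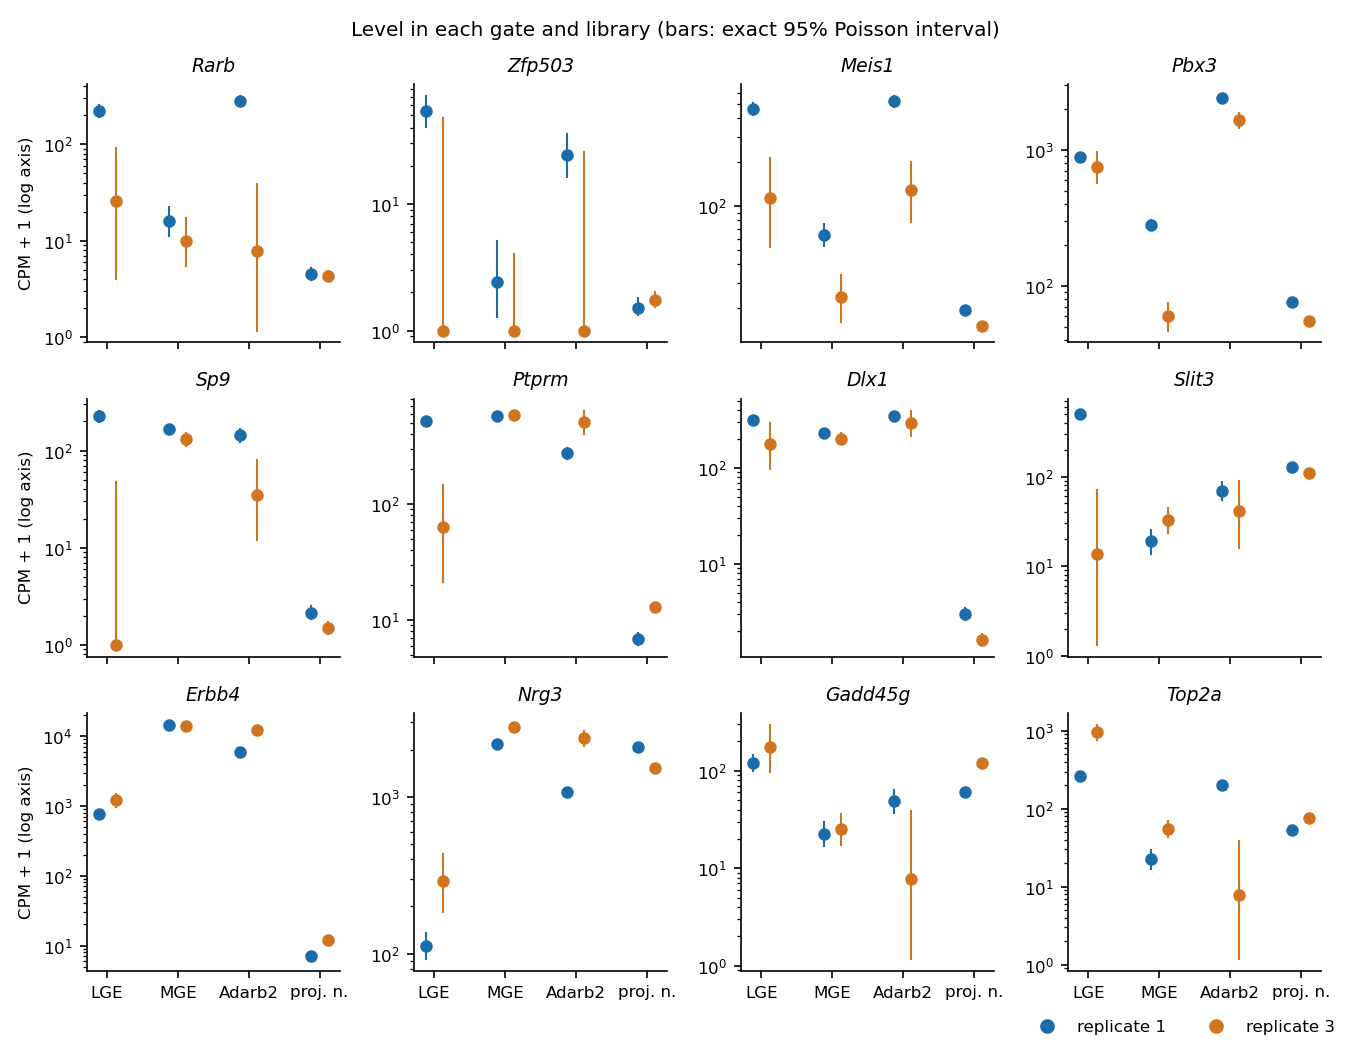
Level of 12 genes (CPM + 1, log axis) in the LGE, MGE, Adarb2 and projection neuron gates (proj. n.), by library, with exact 95% Poisson intervals as bars. Rarb, Zfp503, Sp9 and Slit3 are high in the LGE gate of replicate 1 and not of replicate 3, and Erbb4 and Nrg3 are below the MGE and Adarb2 gates in both libraries.

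The Adarb2 gate, named after an RNA-editing family gene of caudal interneurons, differed from the LGE gate in fewer called genes than the other gates did. Of 10681 genes, 1 was higher in the LGE gate (0.00936%) and 18 were lower (0.169%), together 0.178%, and all 19 had the same direction in both libraries. With the library as a block 37 genes were called, and DESeq2 called 103. Without the LGE gate sum of replicate 3, 29 genes were called, 16 of them shared with the 19. Without that of replicate 1, which leaves the 9 cells of replicate 3, there were 284, of which 9 were shared. Utrn, which encodes utrophin, was at 178 and 238 CPM against 29.7 and 53.9 CPM (2.36 ± 0.29, adjusted p = 0.0272). The genes furthest below the Adarb2 gate were Dgkg, the phosphatase gene Inpp4b, the mineralocorticoid receptor gene Nr3c2 and the transcripts Gm2516 and Gm20642. Nr3c2 was at 3.12 and 37.6 CPM against 150.3 and 189 CPM (-4.80 ± 0.61, adjusted p = 0.0278), and the other 4 had 1 to 3 UMIs in replicate 1 and 0 in replicate 3.

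Among list genes, 5 were lower than in the Adarb2 gate and 0 were higher. Erbb4 was at 754 and 1204 CPM against 5875 and 12002 CPM (-3.40 ± 0.47, adjusted p = 0.0340, and -3.62 with adjusted p = 0.0682 without the LGE gate sum of replicate 3). Nrg3 was at 111 and 288 CPM against 1075 and 2357 CPM (-3.48 ± 0.52, adjusted p = 0.0487), and Tshz1, a zinc finger gene of dorsal LGE derivatives, at 84.2 and 50.2 CPM against 339 and 343 CPM (-2.23 ± 0.31, adjusted p = 0.0340). The cannabinoid receptor gene Cnr1 (-3.69 ± 0.39, adjusted p = 0.0272) and Npas1, a transcription factor gene of interneurons (-3.86 ± 0.53, adjusted p = 0.0340), were lower too. No striatal gene (0 of 19) was called in either direction, where 3 had an unadjusted p under 0.05 and DESeq2 called 0. Rarb was at 279.9 and 6.74 CPM in the Adarb2 gate, a spread like that of the LGE gate, and Meis1 at 522 and 128 CPM.

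The limit on Adarb2 divided cells with LGE markers. In replicate 1, 127 of 178 Adarb2 gate cells reached the marker sum of 3, and without the limit on Adarb2 the rule would find 277 cells in replicate 1 and 19 in replicate 3. Isl1 and Ebf1 were together at 2 or more UMIs in 27 of these cells, more than the 18 cells within the LGE gate. One of the 27 had 68 UMIs of Rgs5. In the other 26 cells Ebf1 was at 12369.7 CPM, Rarb at 1747 CPM, Foxp2 at 4265 CPM, Bcl11b at 2329 CPM and Ikzf1, a zinc finger gene of striatal neurons, at 375 CPM, while Drd2, Adora2a, Penk, Sp9, Pax6 and Slit3 had 0 UMIs. In the 10 Ebf1 cells of the LGE gate without Rgs5, Ebf1 was at 9064 CPM, Rarb at 1089 CPM, Foxp2 at 4549.5 CPM, Bcl11b at 2178 CPM and Ikzf1 at 105 CPM. Foxp2 and Bcl11b thus lay close together, while Ebf1, Rarb and Ikzf1 were higher in the cells of the Adarb2 gate. With 1 library these values were not tested. A further 100 Adarb2 gate cells reached the marker sum without Isl1 or Ebf1. Tshz1 was at 499 CPM (448 to 554) in these cells and at 85.1 CPM (63.9 to 111) in the Meis2/Foxp1 subset of the LGE gate. Pbx3 was at 3143 CPM (3012 to 3278) and 927 CPM (854 to 1005), and Foxp2 at 1693 CPM (1597 to 1793) and 411 CPM (363 to 465). The remaining 51 Adarb2 gate cells had Meis2 at 42.9 CPM (20.6 to 79.0), Erbb4 at 14962 CPM and Nr2f2, a nuclear receptor gene of caudal interneurons, at 348 CPM (276 to 432).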

How the data were processed

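The authors prepared 10x Genomics 3' v3.1 libraries and deposited UMI counts per gene and barcode, 1 matrix of 32285 genes per sample. The submitters' processing notes name Cell Ranger 7.0.0 and mm10, and the annotation and intron setting are not given in the sources used here. The counts were used as deposited. A barcode was kept when it held between 1500 and 60000 UMIs, less than 10% of them mitochondrial, which left 5453 in replicate 1 and 7483 in replicate 3. Predicted doublets (a reimplementation of Scrublet's score, top 0.8% per 1000 barcodes, 304 and 629 barcodes) were kept in the main analysis and removed as an alternative.

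UMIs were summed per gate and library, since cells are not replicates, and the 8 sums (79740 to 52544020 UMIs) were tested with edgeR 4.0.16 (quasi-likelihood, TMM, filterByExpr, prior count 2, Benjamini-Hochberg adjustment, threshold 0.05) without the rule genes. The code was tested on simulated data. The SE was taken as the absolute log2 fold change divided by the root of F. The labels give 2 separate samples, without saying more. The p-values measure the spread between these, in 1 estimate per gene shared by all gates and not in the LGE gate alone. The LGE gate sums came from 150 and 9 cells in replicates 1 and 3. Whether the shared estimate understates the spread of the LGE gate was not tested. Sums of 1 library come from the same sample and are thus paired by it. Across genes, the differences between libraries of any 2 gates correlated at 0.0190 to 0.261. The test had no library term, and an alternative added it as a block. CPM were computed from the sums without TMM factors, and their intervals are exact Poisson intervals. Ratios within replicate 1 have exact binomial intervals. All intervals cover counting error only. Coordinates are from RefSeq on GRCm38.p6 (mm10), in which 263 of 265 list and named genes were matched.

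The members, the gene lists and the tests were chosen with earlier results of these data known. Named by rule were, per gate comparison, the 10 genes furthest above and the 5 furthest below among genes past the threshold with the same direction in both libraries and at least 20 CPM in both libraries of the higher gate, without mitochondrial and hemoglobin genes, and list genes that an account turns on. Some list genes are counted but not reported here by name. Subsets were not tested, nor were alternatives of such a test run, as 2 of them held 1 cell in replicate 3. Alternatives changed the tool, scaling, filter, gate limits, depth (each cell thinned to 1500 UMIs), doublets and libraries. Other software was Python 3.11.15, numpy 2.4.6, scipy 1.17.1, R 4.3.3 and DESeq2 1.42.0.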

Additional observations from a re-analysis of the deposited data

How the results depend on the processing

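With 2 libraries, and 9 of the 159 cells in replicate 3, counts of called genes moved with most settings. Against the MGE gate, where 429 genes were called, there were 237 with Meis2 left out of the marker sum, 893 without predicted doublets and 1340 with no filter on low counts. Against the Adarb2 gate (19 genes) the count was 103 with DESeq2, 61 with cells thinned to 1500 UMIs, 4 without Meis2, 35 with no Neurod2 or Neurod6 UMI allowed, 524 with no filter and 37 with the library as a block. Against the projection neuron gate (710 genes) it was 432 without Meis2 and 1679 with no filter. With the block 603 and 764 genes were called against the MGE and projection neuron gates, and of the 76 named calls 1, Dnmt1 against projection neurons, was lost. 3 alternatives were chosen after seeing the data. Restricted to cells with a UMI of Dlx1, Dlx2, Dlx5 or Dlx6, 651 genes were called against the MGE gate and 59 against the Adarb2 gate. Leaving out 1 LGE gate sum gave 468 to 577 (MGE), 29 to 284 (Adarb2) and 337 to 790 (projection neurons). Of the 76 named calls, 68 held without the LGE gate sum of replicate 3 and 32 without that of replicate 1, where 34 fell short of the threshold, 9 had 0 UMIs in the LGE gate of replicate 3 and were given no fold change, and Slit3 against the MGE gate turned to -1.27 (adjusted p = 0.629). In single libraries, with no test, Slit3 was at -1.69 in replicate 3 and 4.64 in replicate 1 (log2 fold change). Without Meis2, 51 of the 76 calls held. The share of LGE gate cells in the kept barcodes, a mean of 1.44%, ranged from 0.824% (without Meis2) to 1.48% (without predicted doublets). The share of LGE gate cells with a UMI of cycling genes was 55.7%, as a mean of the libraries, both at 1 or more UMIs and without thinning. The cause of these changes was not tested. At 79740 UMIs in the LGE gate sum of replicate 3, a gene under 37.6 CPM had fewer than 3 expected UMIs, so its level there could not be told from 0.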
